A study of Mus musculus with 3 samples.

Results

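The genes of the Wnt, Fgf and Bmp families, most of which encode secreted signals known to pattern the embryo, were read for 2 chromatin measurements at their transcription start sites (TSSs). Members were the protein-coding genes of GENCODE M21 whose symbol is Wnt, Fgf or Bmp followed by a number and, in some, the letter a or b. This rule used no measured value and gave 52 of 21951 genes, which are 19 Wnt, 22 Fgf and 11 Bmp genes. They are called ligand genes or ligands here by this rule, although the products of Bmp1 and of Fgf11 to Fgf14 are not ligands, as described with them. The series held 3 libraries from cerebral cortices of mouse embryos at E13.5, namely input chromatin, NF-Y-ChIP with an antibody against the NF-YC subunit and H3K4me3-ChIP, 1 of each. No genetic change or treatment is named in the labels, and how many embryos entered a library is not given in the sources used here. H3K4me3 is a histone mark found at the start sites of active and poised genes, and NF-Y is a trimeric factor that binds the CCAAT box of promoters. The authors deposited a list of peaks for each antibody, with the position of each peak, its enrichment over background at the summit, expressed as fold, and its p- and q-values. A gene was called marked when an H3K4me3-ChIP peak lay within 1000 bp of the TSS of any of its transcripts, and its fold enrichment and width were those of its strongest peak. Since each antibody had 1 library, no replicate error exists and no test was made, and values for the ligands are set beside those of all protein-coding genes.

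Wnt proteins are lipid-modified ligands of Frizzled and Lrp receptors, most Fgf proteins bind receptor tyrosine kinases of the Fgfr family, and Bmp growth factors act through serine/threonine kinase receptors and Smad proteins. In the embryonic forebrain the cortical hem, at the medial edge of the cortex, is known as a source of Wnt and Bmp proteins, and the rostral midline as a source of Fgf8 and related ligands. In a library of whole tissue, fewer cells with a mark and less of the mark per cell cannot be told apart.

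An H3K4me3-ChIP peak was present at 36 of the 52 ligand genes (69.2%, Wilson 95% confidence interval 55.7 to 80.1%), against 62.7% of all protein-coding genes. Marked genes made up 13 of 19 in the Wnt family (68.4%), 15 of 22 in the Fgf family (68.2%) and 8 of 11 in the Bmp family (72.7%). The share of marked ligands was therefore near that of all genes, and the interval, which covers the counting of genes only, included it. The marks at ligands were lower in fold than those of most marked genes. Their median fold enrichment was 20.2, with an order-statistic 95% interval of 12.2 to 26.2, whereas that of the 13767 marked protein-coding genes was 39.9. Only 4 of the 36 marked ligands, Fgf20, Bmp1, Wnt5b and Wnt7a, were above the median of all marked genes, Bmp1 being no ligand by function and Wnt7a exceeding it by less than the digits printed here. NF-Y-ChIP gave no peak at any of the 52 ligand genes, which allows a share of up to 5.77% when 3 counts are taken as the limit of a count of 0 (Wilson 95% upper limit 6.88%), and 3.20% of all protein-coding genes had such a peak.

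Promoter sequences of 3 ligands show the base composition of marked and unmarked members. Each is the run of 250 bases before the 5′ end of the gene, 5′ to 3′ on the strand of the gene, read from the GRCm38 reference, and the capitals mark CpG dinucleotides, the substrate of DNA methylation in mammals. Fgf20 (chr8:40308332-40308581, minus strand, 18 CpG) had the strongest H3K4me3-ChIP peak of all ligands. Of its window 79 bases are part of an exon of Micu3, which is transcribed from the opposite strand. Wnt2b (chr3:104961922-104962171, minus strand, 17 CpG) is a marked ligand of the cortical hem. Wnt3a (chr11:59290753-59291002, minus strand, 41 CpG) is an unmarked ligand of the cortical hem and the most CpG-rich of the 16 unmarked ligands, so it does not stand for that group. Wnt2b was chosen after its values were seen.
Fgf20: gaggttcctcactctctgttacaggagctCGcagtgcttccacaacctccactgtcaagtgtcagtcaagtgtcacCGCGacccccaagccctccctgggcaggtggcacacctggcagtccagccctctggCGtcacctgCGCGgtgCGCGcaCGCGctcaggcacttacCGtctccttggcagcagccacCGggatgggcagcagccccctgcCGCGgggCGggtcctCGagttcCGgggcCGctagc
Wnt2b: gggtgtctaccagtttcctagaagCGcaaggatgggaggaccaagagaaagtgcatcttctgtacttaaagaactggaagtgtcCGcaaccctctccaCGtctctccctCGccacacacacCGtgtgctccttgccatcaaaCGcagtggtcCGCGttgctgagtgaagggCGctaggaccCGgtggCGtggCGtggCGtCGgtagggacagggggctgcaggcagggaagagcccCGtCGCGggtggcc
Wnt3a: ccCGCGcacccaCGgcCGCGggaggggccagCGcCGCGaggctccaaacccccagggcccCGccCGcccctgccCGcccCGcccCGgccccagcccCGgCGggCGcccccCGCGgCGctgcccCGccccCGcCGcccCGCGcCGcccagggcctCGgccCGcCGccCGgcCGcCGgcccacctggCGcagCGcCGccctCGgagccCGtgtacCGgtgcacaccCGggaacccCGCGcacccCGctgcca

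**Figure D1:**
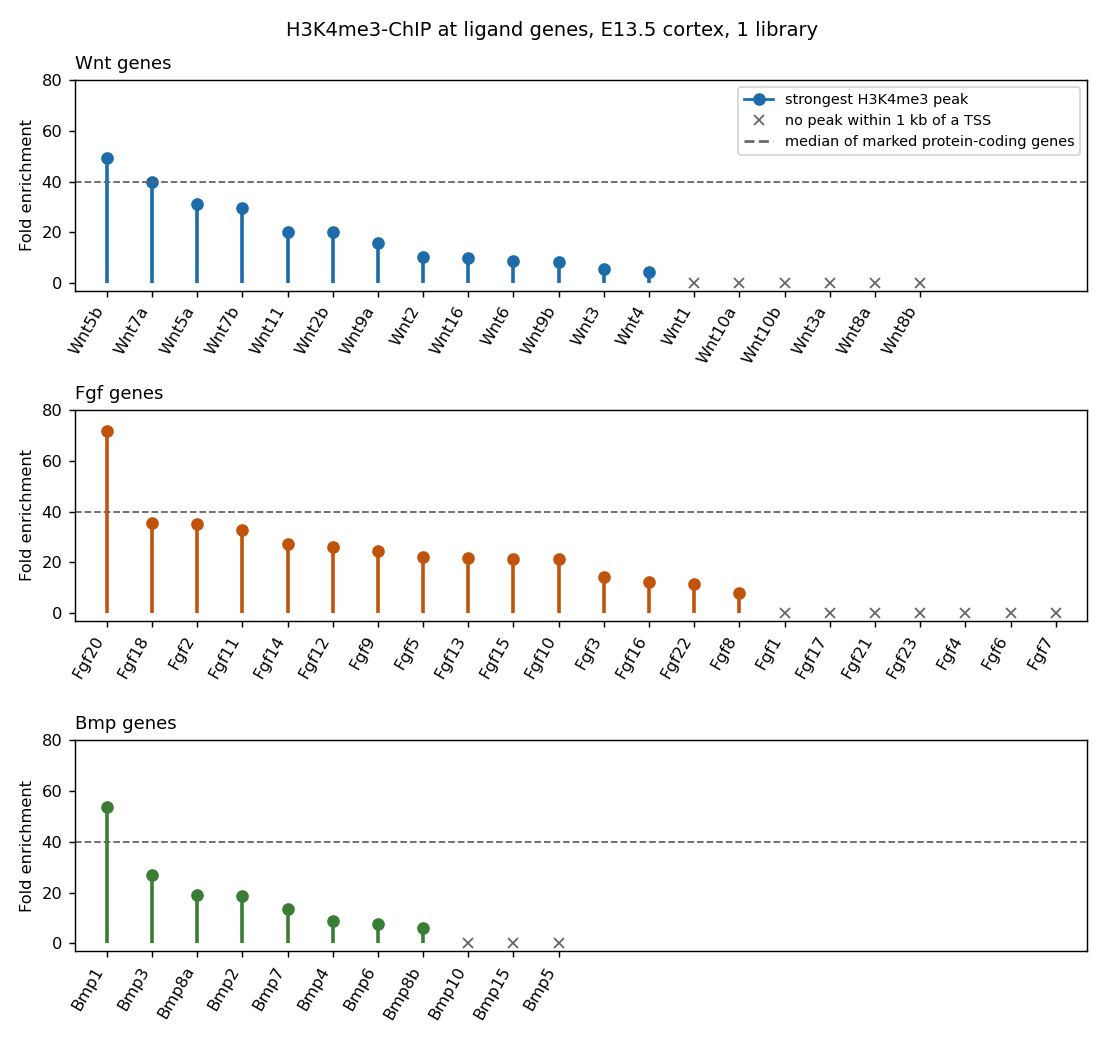
Fold enrichment of the strongest H3K4me3-ChIP peak (y axis, linear) for each Wnt, Fgf and Bmp gene (x axis), with a cross for unmarked genes and a dashed line at 39.9, the median of all marked protein-coding genes. Of 52 genes 36 carry a point and 16 a cross, and only Fgf20, Bmp1 and Wnt5b stand clear above the line, with Wnt7a on it.

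Among the Wnt genes the strongest mark was at Wnt5b, a ligand of non-canonical signalling, with a fold enrichment of 49.3 over 1412 bp, its summit 227 bp downstream of a TSS, and 1743 bp covered by its peaks. Where covered bases are not given below, the gene had a single peak or is given by fold alone. Wnt7a followed with 39.9 over 2480 bp, all in a single peak, its summit 200 bp downstream of the nearest TSS. Wnt7a, like Wnt7b, is known as a ligand of neural progenitors and of brain vessels. Its peak was also within 1000 bp of the long non-coding gene Gm30437. Wnt5a, a ligand of planar polarity signalling, reached 31.3 and Wnt7b reached 29.7, and their strongest peaks were the widest among the strongest peaks of all ligands. The strongest peak of Wnt5a (chr14:28504229-28507859, GRCm38) spanned 3631 bp, wider than 98.3% of marked genes, and its 3 peaks covered 5973 bp. At Wnt7b the strongest peak spanned 2646 bp, and with a weaker peak of 10.7-fold over 2415 bp the gene had 5061 bp covered. The stronger of these was also near the start of AU022754. The summits of these peaks lay 143 bp downstream of a TSS at Wnt5a and 410 bp downstream at Wnt7b.

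The remaining marked Wnt genes had folds of 20.3 or lower. Wnt11 had 20.3 at a start inside the gene and 12.5 at its 5′ end, Wnt2b had 20.1, Wnt9a had 16.0, Wnt2 had 10.4, and Wnt16, Wnt6 and Wnt9b were between 9.86 and 8.22. The weakest marks of all ligands were at Wnt3, with 5.51 over 707 bp, its summit at −92 bp from the TSS and 901 bp covered, and at Wnt4, a ligand best known from kidney and gonad, with 4.33 over 1446 bp. The Wnt4 peak is thus low but of ordinary width, since the median width of all marked genes was 1404 bp. Its summit was at −139 bp from the TSS, where negative positions are upstream. The median of the 13 marked Wnt genes was a fold of 16.0 and a width of 1029 bp.

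Of the Fgf genes, Fgf20 had the highest fold of any ligand, 71.6 over 1566 bp (chr8:40307221-40308786), higher than 95.7% of marked genes. Its summit was 53 bp downstream of the Fgf20 TSS, and with a weaker peak of 545 bp the gene had 2111 bp covered. The same peak was within 1000 bp of the start of Micu3, a regulator of mitochondrial calcium uptake, and of Mir7666, so the mark of Fgf20 and those of these genes cannot be told apart in this list. Fgf18 had 35.6 over 1604 bp, with the summit at −159 bp from a TSS, and Fgf2 had 35.2 over 1007 bp in a peak with its summit at −67 bp from a TSS, which also lay near the antisense gene Fgf2os. Fgf2 is a mitogen of cortical progenitors, and Fgf18 and Fgf20 are paracrine ligands. Fgf9 had its signal broken into 4 peaks with 4439 bp covered, the strongest of 24.6-fold over 2236 bp, 104 bp from the TSS of a transcript 4.57 kb inside the gene. Fgf5 had a fold of 22.1 and Fgf10, a ligand of the transition to radial glia, had 21.2. The Fgf10 peak did not lie at the 5′ end of the gene but at its protein-coding transcript, which starts 44.9 kb downstream, with the summit at −284 bp from that TSS, and the starts of its other transcripts had no peak. That peak was also near the start of Gm16263. Fgf16 and Fgf22 had folds of 12.2 and 11.6, and the Fgf22 peak was 374 bp wide. In all, 10 of the 15 paracrine Fgf genes were marked, and Fgf1, Fgf4, Fgf6, Fgf7 and Fgf17 were not. The endocrine group, which acts at a distance with Klotho co-receptors, had 1 marked gene of 3, Fgf15, which is also a known patterning gene of the embryonic brain.

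The 4 Fgf homologous factors Fgf11, Fgf12, Fgf13 and Fgf14 stay inside the cell, where they bind voltage-gated sodium channels of neurons, and they do not act as ligands. All 4 were marked, with folds from 21.9 to 32.8 and a median of 26.7. Fgf11 had 32.8 over 1855 bp, with 2703 bp covered, and its strongest summit was 822 bp downstream of a TSS. The long genes Fgf12, Fgf13 and Fgf14 are known for alternative first exons, and their peaks stood at several of these. At Fgf12, 4 of 6 TSSs were marked, with 21.5-fold at the 5′ end, 26.2-fold at the start 188 kb downstream and 25.4-fold at the starts 307 kb downstream. Fgf13 had 7 of 8 TSSs marked, with 21.9-fold over 2540 bp at the 5′ end and 15.7-fold at the starts 434 to 435 kb downstream, and its peaks covered 4690 bp with the strongest summit 486 bp downstream of a TSS. Fgf14 had both of its TSSs marked, with 21.1-fold over 2764 bp at the 5′ end and 27.2-fold over 1359 bp at the start 484 kb downstream, with that summit 517 bp downstream of the start and 4123 bp covered. Another Fgf13 peak near these downstream starts had 5.58-fold over 178 bp. There is no replicate by which to order the folds at alternative starts of the same gene.

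In the Bmp family the highest fold was that of Bmp1, which is a metalloprotease of the extracellular matrix and no growth factor. Its peak (chr14:70519066-70520850) had 53.7-fold over 1785 bp with the summit 273 bp downstream of a TSS, and marked 3 of its 7 TSSs. The growth factors were marked in 7 of 10 cases, with a median fold of 13.4. Bmp3, which opposes other Bmp proteins, had the highest among them with 26.9, followed by Bmp8a with 19.0 and Bmp2 with 18.6. Bmp8b, at 5.94 over 302 bp with its summit at −58 bp from a TSS, had the narrowest strongest peak of any ligand. Bmp5, Bmp10 and Bmp15 were unmarked. Bmp10 is a ligand of the heart and Bmp15 of the oocyte.

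**Figure D2:**
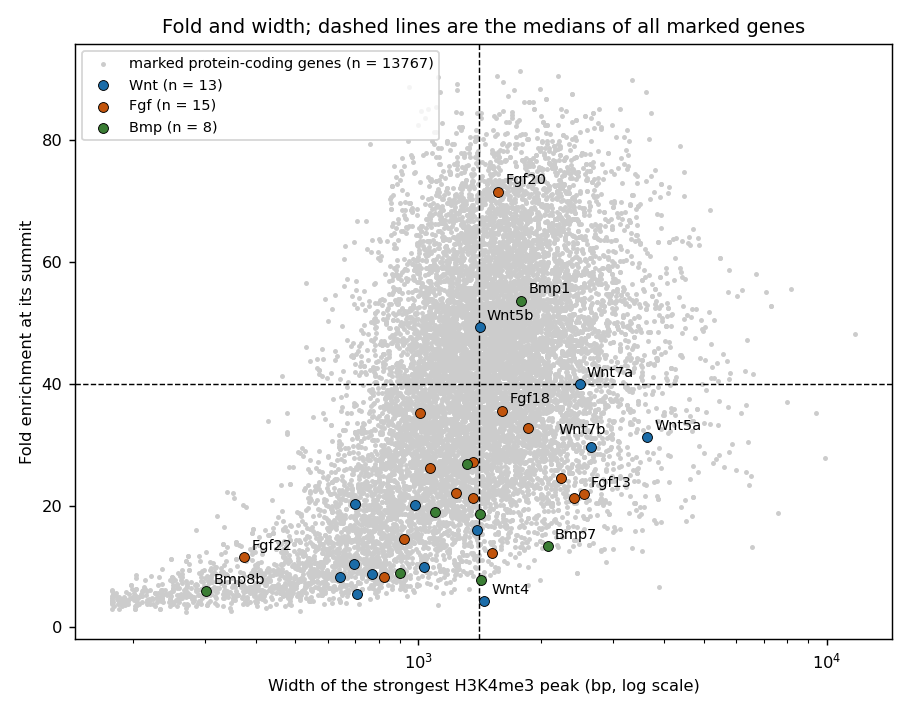
Fold enrichment (y axis, linear) against width in bp (x axis, log scale) of the strongest H3K4me3-ChIP peak, for 13767 marked protein-coding genes (grey) and for the marked Wnt (n = 13), Fgf (n = 15) and Bmp (n = 8) genes. Most ligands lie below the dashed median fold of 39.9, and to both sides of the dashed median width of 1404 bp.

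Fold and width separated the ligands from other marked genes to different degrees. When all marked genes were divided by fold into 4 groups of equal size, 24 ligands fell in the lowest group, below 25.7, and 8, 2 and 2 in the following groups. When the weaker 50% of H3K4me3-ChIP peaks were left out, 9 of the 52 ligands were marked, against 45.1% of all protein-coding genes. By width the ligands were spread as 12, 8, 9 and 7 from the narrowest to the widest group, and 16 of 36 were above the median width. The median width of marked ligands was 1358.5 bp with an interval of 1007 to 1513 bp, and 7 ligands (Bmp7, Fgf9, Fgf13, Fgf15, Wnt5a, Wnt7a and Wnt7b) had a strongest peak of over 1863.5 bp. Of the marked ligands 22 had 1 peak, 10 had 2 peaks and 4 had 3 or more, 55 in all. Every TSS was marked in 24 genes, and 12 marked genes had an unmarked TSS. These counts of peaks and TSSs were not made over all marked genes, so they show no trait of the ligands. The strongest summit was downstream of the nearest TSS in 23 of 36 ligands (63.9%), against 76.5% of all marked genes. With upstream summits counted as negative, the median position over all 36 ligands was 69 bp downstream, against 122 bp over all marked genes.

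A peak within 1000 bp can belong to a neighbouring gene, and 8 ligands had a peak that was also within this distance of another annotated gene. The number of all marked genes with a shared peak was not counted. With such peaks left out, 32 of the 36 marked ligands and 9285 of the 13767 marked protein-coding genes were still marked. The median fold was then 15.2 for the ligands and 36.7 for all these genes. Of the ligands 2, Bmp1 and Wnt5b, were above 36.7. The median of the ligands was thus below that of all marked genes with and without shared peaks.

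Genes of the cortical hem list were marked in 7 of 10 cases, with a median fold of 18.6. Wnt5a and Wnt7b had the highest values, as given above, and Wnt2b had 20.1 over 980 bp, with its summit at −11 bp from a TSS. Among the Bmp genes of the hem, Bmp2 had 18.6 over 1415 bp with the summit 212 bp downstream of the TSS, and Bmp7 had 13.4 over 2074 bp with the summit at −234 bp. Bmp6 had 7.77 over 1419 bp with the summit 168 bp downstream of a TSS, and Bmp4, a classical dorsal midline signal, had 8.94 over 900 bp. The Bmp4 peak (chr14:46387332-46388231) was not at the 5′ end of the gene. It lay beside the start of a retained-intron transcript 3365 bp downstream of the 5′ end, near Gm15222, and close to the 5′ end there was only a peak of 4.15-fold and 178 bp. Both peaks together covered 1078 bp, and the stronger had its summit at −241 bp from that internal start. Wnt3a, Wnt8b and Bmp5 of the same list had no peak. Wnt3a is the hem ligand required for the hippocampus.

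**Figure D3:**
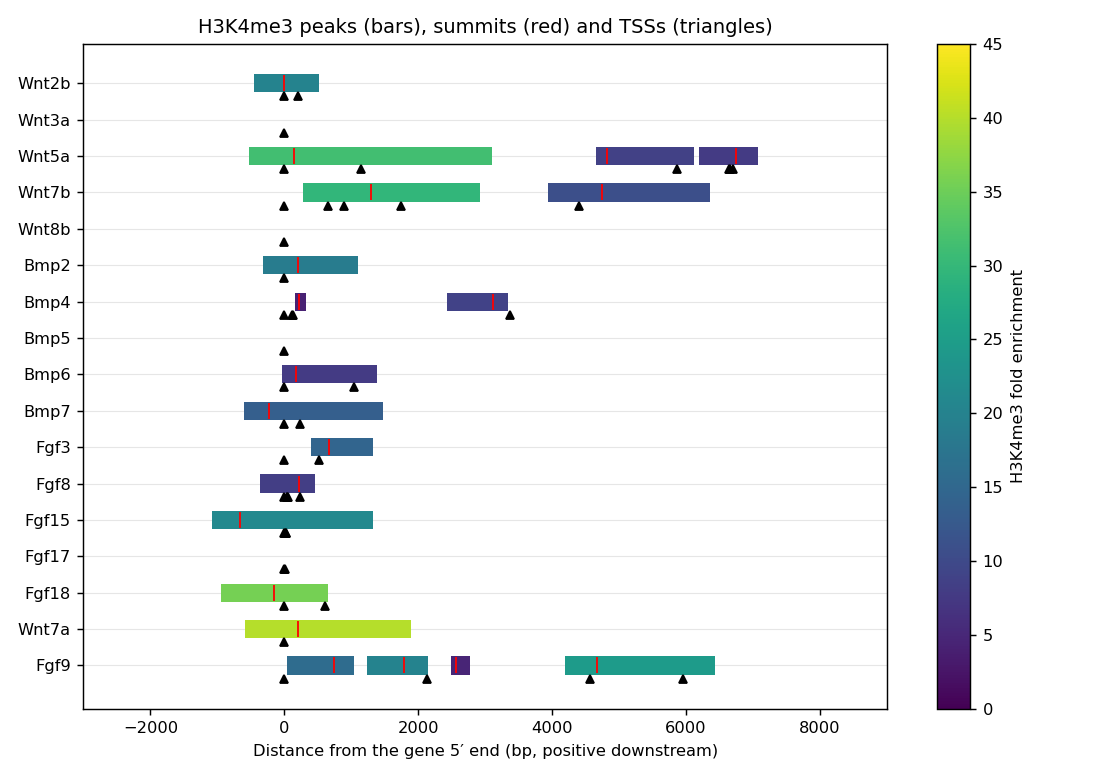
H3K4me3-ChIP peaks (bars, coloured by fold enrichment), summits (red lines) and TSSs (triangles) of the cortical hem and rostral ligands and of Wnt7a and Fgf9, placed by distance in bp from the 5′ end of the gene (x axis, positive downstream). Wnt5a and Wnt7b carry the longest bars, the stronger bar of Bmp4 stands 2438 to 3337 bp inside the gene, and Wnt3a, Wnt8b, Bmp5 and Fgf17 carry none.

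Genes of the rostral patterning list were marked in 4 of 5 cases, with a median fold of 17.8. Fgf18 had the highest value, 35.6. Fgf15 had 21.2 over 2406 bp, with the summit at −664 bp from the nearest TSS, in a peak shared with Gm26793. Fgf3 had 14.5 over 922 bp and its summit 161 bp downstream of a TSS. Fgf8, the principal organiser signal of this region, had 8.19 over 822 bp with the summit at −13 bp from a TSS, at percentile 4.61 of marked genes by fold. Fgf17, a close relative of Fgf8, had no peak, and the nearest was 6103 bp away at Dmtn.

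Unmarked ligands lay at very different distances from the next H3K4me3-ChIP peak. Wnt8b was nearest to the limit, with a peak of 8.19-fold and 692 bp inside the gene at 1143 bp from a TSS, its summit 18402 bp downstream of the 5′ end. At a limit of 2000 bp it would count as marked, and no other unmarked ligand would. Inside the limit, every marked ligand had a peak that covered a TSS, except Bmp4, whose nearest peak was 19 bp away. Fgf17, Wnt10a and Fgf23 came next, at 6103, 6842 and 6953 bp, and the Fgf23 peak, 39.2-fold over 839 bp, was inside the gene but near no TSS. At Wnt1, known as a signal of the boundary between midbrain and hindbrain, the nearest peak was 15571 bp away and had 3.55-fold. The farthest was that of Fgf7, 116724 bp away. A peak in the gene or in the 5 kb before it was found for 4 of the 16 unmarked ligands. The same share among all unmarked protein-coding genes was not computed, so this count shows no trait of the ligands.

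Several ligand genes are neighbours, and 7 pairs lie within 50 kb. The 2 members were alike in marking in some pairs and not in others, and no share over other neighbouring genes was computed. Fgf3 had 14.5-fold while Fgf4, whose gene starts 2.93 kb after the end of Fgf3, was unmarked, and Fgf15, 31.3 kb beyond Fgf4, had 21.2-fold. Wnt6 had 8.71 over 771 bp, its summit 165 bp downstream of a TSS, while Wnt10a, 6.19 kb away, was unmarked. Wnt9a had 16.0 over 1390 bp, its summit 84 bp downstream of a TSS, and Wnt3a, which starts 16.2 kb away on the opposite strand, was unmarked. Both members were unmarked in the pairs Wnt1 and Wnt10b, 11.7 kb apart, and Fgf6 and Fgf23, 44.7 kb apart. Wnt3 and Wnt9b, 24.3 kb apart, were both marked, at 5.51-fold and 8.22-fold. The Wnt9b peak spanned 641 bp with its summit 93 bp downstream of the TSS.

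The CpG content of the promoter, a property that the rule for members did not use, differed between marked and unmarked ligands. It was expressed as the observed to expected ratio of CpG dinucleotides in the reference within 500 bp to each side of the 5′ end of the gene. The 36 marked ligands had a median of 0.714, from 0.345 to 1.08, and the 16 unmarked ligands had a median of 0.354, from 0.0492 at Fgf4 to 0.747 at Wnt3a. The groups overlapped between 0.345 and 0.747. The lowest marked value, 0.345, is that of Fgf10, whose 5′ end had no peak, since its mark lay at the start 44.9 kb downstream. In all marked and all unmarked protein-coding genes the medians were 0.720 and 0.180, so the median of unmarked ligands was above that of unmarked genes in general.

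Marking followed CpG class in the ligands as in all genes. Below 0.25, 0 of 5 ligands and 10.6% of genes were marked, and from 0.25 to 0.5 these were 9 of 17 ligands and 46.7% of genes. From 0.5 to 0.75, 11 of 14 ligands and 92.8% of genes were marked, and from 0.75 upwards 16 of 16 ligands and 98.8% of genes. The 3 unmarked ligands above 0.5 were all Wnt genes, namely Wnt1 with 0.582, Wnt10b with 0.627 and Wnt3a with 0.747, whose sequence is shown above. The fold of the marks did not follow this order in the ligands. In the 3 upper classes the median fold of marked ligands was 24.6, 21.2 and 17.3, while that of all marked genes was 22.6, 36.5 and 46.8. The ratio and the fold do not always belong to the same start, because some of the strongest peaks lay at starts inside the gene. In the class from 0.25 to 0.5 these were the peaks of Fgf9, Fgf10, Fgf14 and Bmp4, which at the 5′ end had 15.8-fold, no peak, 21.1-fold and 4.15-fold. In the classes above they were those of Fgf12 and Wnt11, with 21.5-fold and 12.5-fold at the 5′ end. With a ratio of 0.5 or more, 3 of 27 marked ligands (Bmp1, Fgf20 and Wnt5b) exceeded the median of 42.5 over 11273 marked genes.

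**Figure D4:**
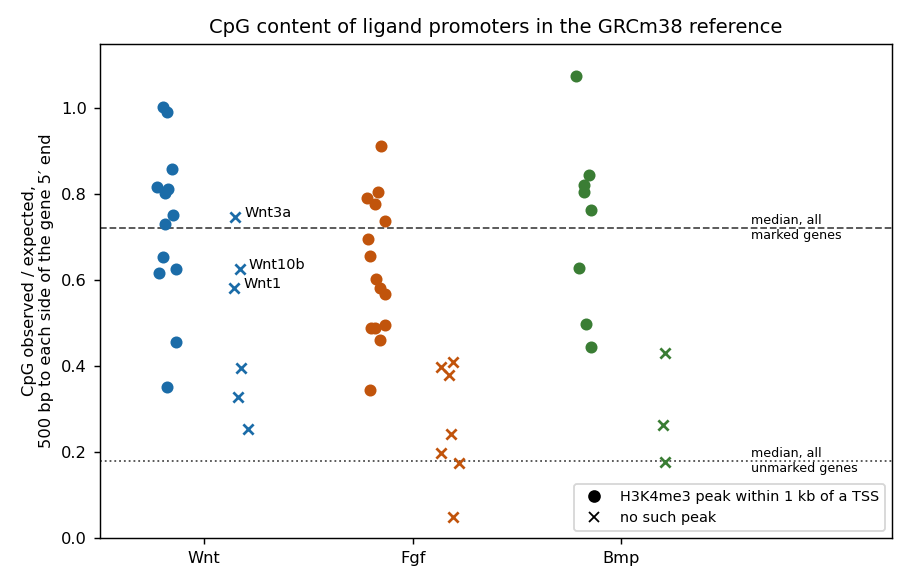
CpG observed to expected ratio of each ligand promoter (y axis, linear, 500 bp to each side of the gene 5′ end) by family (x axis), as circles for marked and crosses for unmarked genes. The lines are the medians of all marked (0.720) and unmarked (0.180) protein-coding genes, and the crosses of Wnt1, Wnt10b and Wnt3a stand above 0.5.

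NF-Y-ChIP peaks were also absent from the surroundings of most ligands. None had such a peak in its transcribed region or in the 5 kb before it, the rule by which the study assigned target genes, and 1 gene, Fgf21, had a peak within 50 kb of a TSS, at 47.0 kb. The next nearest were 105 kb from Wnt8b and 109 kb from Wnt8a. The shares of all protein-coding genes by these wider rules were not computed, so the counts show no trait of the ligands. Over all genes, NF-Y-ChIP peaks were more frequent at strongly marked promoters, with 1.98, 4.88, 6.17 and 7.28% of genes from the lowest to the highest of the 4 groups by H3K4me3-ChIP fold, and at 3 of 8184 unmarked genes (0.0367%). The lowest group held 24 of the 36 marked ligands. Whether the fold of their marks has a part in the missing NF-Y-ChIP peaks was not tested. With so few genes, a share like that of the lowest group was not distinguishable from 0.

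The letters of the CCAAT box had a similar share in ligand promoters and elsewhere. CCAAT or ATTGG, the same box on the other strand, was present between 250 bp upstream and 50 bp downstream of the 5′ end in 21 of 52 ligands (40.4%) and in 39.0% of all protein-coding genes. Among marked genes it was in 14 of 36 ligands (38.9%) and 38.1% of genes, and in genes with an NF-Y-ChIP peak it was in 79.8%. Of 5247 marked genes with these letters 10.7% had an NF-Y-ChIP peak, and of the 14 marked ligands with them 0 had, which allows a share of up to 21.4% by the same limit of 3 counts. The TATA box letters TATAAA or TTTATA were in 8 ligands (15.4%) and in 12.6% of all genes. The window before Fgf22 (chr10:79754826-79755075, plus strand, GRCm38) is shown because it has 3 of the CCAAT box matches, with first bases at positions −191, −63 and −32 from the 5′ end, and no NF-Y-ChIP peak. Positions are from the GENCODE start of the gene, and since RefSeq starts an exon of Fgf22 farther upstream, 25 bases of this window lie in that exon. It was chosen after its values were seen, and the capitals mark CCAAT and ATTGG.
Fgf22: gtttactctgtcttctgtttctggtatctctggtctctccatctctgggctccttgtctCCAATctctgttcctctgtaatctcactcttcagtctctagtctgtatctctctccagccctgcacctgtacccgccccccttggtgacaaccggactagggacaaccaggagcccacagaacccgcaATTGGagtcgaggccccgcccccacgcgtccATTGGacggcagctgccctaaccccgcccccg

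Genes that receive or modulate these signals were read in the same way. Of 85 receptors, inhibitors, transducers and targets, 81 had an H3K4me3-ChIP peak (95.3%, Wilson 95% confidence interval 88.5 to 98.2%), with medians of 36.9 in fold and 2021 bp in width, against 62.7% of all protein-coding genes. The ligands had 36 of 52 genes marked, with medians of 20.2 and 1358.5 bp. The median CpG ratio was 0.792 for the pathway genes and 0.610 for all 52 ligand genes, and its part in the difference was not tested. The difference has no replicate and was not tested. Those without a peak were the Wnt inhibitors Dkk4 and Sfrp5, the Klotho co-receptor Klb and the endothelial receptor Acvrl1. The highest folds were those of the Bmp receptor Acvr1 with 79.1, the transducer Smad1 with 78.6 and the Wnt co-receptor Lrp6 with 71.2.

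In the Wnt pathway all 15 receptors were marked with a median fold of 38.3, and all 12 transducers with 50.3, whereas 9 of 11 secreted inhibitors were marked with a median of 16.9. The marked Wnt ligands themselves had 16.0. The genes for Wnt secretion, Porcn and Wls, had 24.3 and 19.4. In the Fgf pathway 6 of 7 receptors and co-receptors had a median of 39.4, all 11 transducers and targets had 35.2, and the 15 marked Fgf genes had 22.1, or 21.6 for the paracrine ligands alone. In the Bmp pathway 6 of 7 receptors had a median of 55.8, all 8 inhibitors had 28.3, all 12 transducers and targets had 30.2, and the 8 marked Bmp genes had 16.0, or 13.4 for the growth factors alone. NF-Y-ChIP peaks were at 4 of the 85 genes (4.71%), against 3.20% of all genes and 5.08% of all marked genes. These were Apc and Gsk3b of the β-catenin destruction complex, with peaks of up to 5.25-fold and 6.84-fold, the Fgf target Etv5 with 8.30-fold and the Bmp target Id2 with 7.65-fold.

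**Figure D5:**
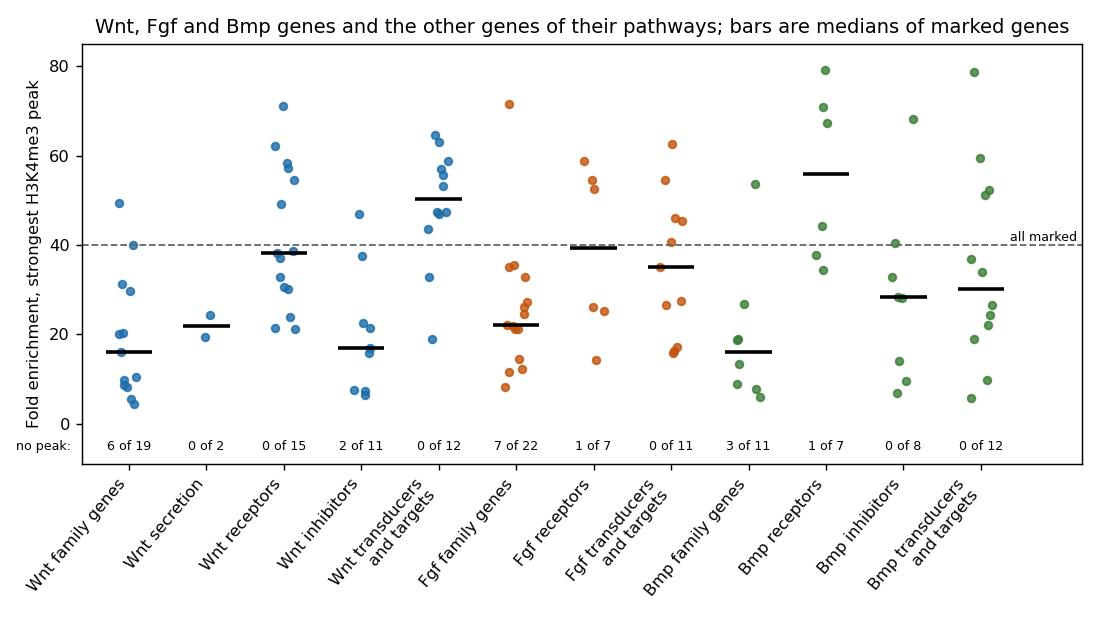
Fold enrichment of the strongest H3K4me3-ChIP peak (y axis, linear) of each marked gene by role in the Wnt, Fgf and Bmp pathways (x axis, with Fgf11 to Fgf14 and Bmp1 among the family genes), with a bar at the median of each role and the number of genes without a peak below. The medians of the Wnt, Fgf and Bmp genes are 16.0, 22.1 and 16.0, the receptor medians 38.3, 39.4 and 55.8, and the dashed line is the median of all marked genes.

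The labelled tissue was checked against its markers in the H3K4me3-ChIP list. The 6 genes of dorsal telencephalic progenitors were all marked, with folds from 30.1 to 60.7 and widths from 3235 to 5846 bp, and the 4 neuron genes were marked with folds from 4.61 at Neurod6 to 50.6 at Tubb3. The 4 ventral telencephalon genes were also marked, from 6.64 at Nkx2-1 to 47.0 at Dlx2, which is above 5 of the 6 dorsal genes. Of the cortical hem genes Lmx1a had 8.15-fold and Rspo2 had 19.4-fold. Genes of the meninges, Foxc1, Col1a1 and Col1a2, had 10.0, 4.76 and 6.52, and Cldn5 of the endothelium had 9.38. Pecam1, both microglia genes, both erythroid genes and Ttr of the choroid plexus had no peak. How much each cell type contributed to the marks of ligands was not tested. The lists held 733 peaks for NF-Y, with a median fold of 6.75, and 18816 for H3K4me3, with 27.5, and neither gives read counts.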

How the data were processed

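The authors made ChIP-seq libraries from E13.5 cortices, trimmed the reads, aligned them to mm10, which is GRCm38, and used MACS2 for peak calling. Their threshold on the p-value was 0.001 in NF-Y-ChIP, and that on the q-value was 0.05 in H3K4me3-ChIP. The submitters' processing notes name Bowtie2 2.2.8, MACS2 2.1.2 and FastQC. The study used an input as the negative control of ChIP, but whether MACS2 was given it is not stated in the sources used here. The authors deposited a peak list per antibody, each from 1 library, and the input was not analysed here. The deposited fold enrichment is a ratio, the pileup at the summit over the background MACS2 estimates locally, the −log10 columns hold the −log10 of the p-value and q-value as deposited, and the deposited score is a display value. The lists carry no sample name and were matched to the antibodies by their thresholds, by this score, which follows the p-value in one list and the q-value in the other, and by the number of NF-Y-ChIP peaks. They were used as deposited, and the H3K4me3-ChIP list differs in its number of peaks from the number of regions that the study gives. The lists give no read counts, so depth is unknown.

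Every GENCODE M21 transcript gave a TSS at its 5′ end. Peaks within 1000 bp of a TSS were assigned to the gene, and positions are 1-based. Shares have Wilson 95% intervals and medians order-statistic intervals, which cover the counting of genes only. The members and lists were chosen with earlier results of these data known. All members are named. Full values were given for marked ligands in the upper 10 by fold or width or the lower 5 by fold, for the cortical hem and rostral lists and for neighbours. Pathway genes were named where they had an NF-Y-ChIP peak, no H3K4me3-ChIP peak or the 3 highest folds, and Porcn, Wls and other genes named beyond this were chosen after their values were seen. Sequences were read from the GRCm38 RefSeq assembly, and 38 of 52 ligands were also in the RefSeq promoter table. The annotation of peaks was tested on simulated data, where 1000 of 1000 made-up genes received the right peaks. Alternatives covered the distance limit, the thresholds, the set of TSSs, the choice of peak and the CpG window. Python 3.11.15, NumPy 2.4.6, pandas 2.3.3, SciPy 1.17.1, pysam 0.24.0 and matplotlib 3.10.9 were used.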

Additional observations from a re-analysis of the deposited data

How the results depend on the processing

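No paired analysis was possible because each group has 1 library, and no replicate could be left out. The number of marked ligands fell to 9 of 52 and that of marked pathway genes to 52 of 85 when only the stronger 50% of H3K4me3-ChIP peaks were used, by which 45.1% of all protein-coding genes were marked, and in the other alternatives they stayed between 32 and 37 and between 79 and 81. The number of ligands with an NF-Y-ChIP peak was 0 under all 9 alternatives. The median fold ranged from 15.2 to 20.2, the median width from 1276.5 to 1417 bp, and the CpG difference between marked and unmarked ligands, 0.361, from 0.331 to 0.395. Ligands above the median fold of marked genes were 2 when shared peaks were left out, and 4 and 3 with the widest peak and in CpG-rich promoters, all 3 added after the data were seen. The unknown depth limits what a missing peak can show.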
